A study of Mus musculus with 23 samples.

Results

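The genes described here are 9 of the mouse genes that draw monocytes into tissue, taken by symbol from a table of 48397 gene symbols. They are 7 ligands, namely Ccl2, Ccl3, Ccl4, Ccl5, Ccl7, Ccl8 and Ccl12, and 2 receptors, Ccr2 and Ccr1. All 9 were in the table and all 9 passed the filter on low counts in every comparison. RNA was measured in cells sorted from Met1-iRFP breast tumours of FVB mice, which were either exercised or sedentary. Met1 is a line of mouse mammary cancer cells, made visible here by iRFP, a protein that fluoresces in the near infrared. The labels name the iRFP+ sort cancer cells and the iRFP- sort cells of the tumour microenvironment (TME). The 4 groups are cancer cells of sedentary mice (n = 8 libraries), cancer cells of exercised mice (n = 7), TME cells of sedentary mice (n = 4) and TME cells of exercised mice (n = 4). All groups share the 1 tumour line and strain. The sources used here give neither the kind nor the length of the exercise, nor the age of the mice. Whether the libraries of a group came from different mice is not stated, and the p-values therefore cover the spread of libraries, which may be technical.

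CC chemokines are small secreted proteins with a pair of adjacent cysteines near the start of the mature chain, and they act on receptors that couple to G proteins. Ccl2, Ccl7, Ccl8 and Ccl12 form the monocyte chemoattractant group, of which Ccl2, Ccl7 and Ccl12 are ligands of Ccr2, the receptor by which classical monocytes leave the bone marrow and enter tissue. Ccl3, Ccl4 and Ccl5 form the macrophage inflammatory group with its relatives. Ccl3 and Ccl5 bind Ccr1. In mammary tumours these ligands are known from macrophages, other leukocytes, stromal cells and tumour cells, and Ccl5 also from activated T and NK cells.

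To show what the 7 ligands share, the coding sequence around the cysteine pair is given, 5′ to 3′ on the coding strand, with the pair's codons in capitals and 18 bases on each side. The sequences are those of the GRCm38 genome at the GENCODE M21 gene models.
Ccl2, chr11:82036488-82036529 on the + strand: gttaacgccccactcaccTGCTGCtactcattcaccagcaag
Ccl7, chr11:82046520-82046561 on the + strand: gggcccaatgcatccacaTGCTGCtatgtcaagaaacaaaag
Ccl8, chr11:82115312-82116079 on the + strand, across an intron: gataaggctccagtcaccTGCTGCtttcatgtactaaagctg
Ccl12, chr11:82102616-82102657 on the + strand: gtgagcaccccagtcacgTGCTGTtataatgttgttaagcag
Ccl3, chr11:83648634-83648675 on the - strand: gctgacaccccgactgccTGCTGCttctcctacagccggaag
Ccl4, chr11:83663464-83663505 on the + strand: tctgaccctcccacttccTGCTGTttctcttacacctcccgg
Ccl5, chr11:83529224-83529265 on the - strand: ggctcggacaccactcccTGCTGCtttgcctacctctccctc
The pair begins at residue 32 of the precursor in Ccl8, at residue 33 in Ccl5, Ccl7 and Ccl12, and at residue 34 in Ccl2, Ccl3 and Ccl4. Over whole coding sequences, Ccl3 and Ccl4 were identical at 66.7% of aligned positions, Ccl8 and Ccl12 at 64.4%, Ccl7 and Ccl12 at 63.2%, and Ccr2 and Ccr1 at 60.0%. No stretch of 50 bases in the transcripts of the ligands or of Ccr1 occurred in another gene, so reads of these relatives were not split by identical sequence of that length. In Ccr2 this held for all but 129 of 6758 such stretches.

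The ligand genes lie on chromosome 11 in GRCm38. Ccl2 (82035571 to 82037453), Ccl7 (82045712 to 82047525), Ccl12 (82101845 to 82103400) and Ccl8 (82115185 to 82116799) lie close together on the + strand. Ccl5 (83525778 to 83530518), Ccl3 (83647844 to 83649355) and Ccl4 (83662584 to 83664683) form a group further along, with Ccl5 and Ccl3 on the - strand and Ccl4 on the + strand. Ccr1 (123962124 to 123968692, - strand) and Ccr2 (124101950 to 124113557, + strand) lie on chromosome 9. Ccl2 overlaps the predicted gene Gm17268, annotated on the other strand.

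The promoters of Ccl8 and Ccl12 are shown because these neighbours had the widest gaps between the sorts. RefSeq's table for GRCm38.p6 held a promoter for 5 of the 9 genes, Ccl3, Ccl8, Ccl12, Ccr2 and Ccr1. The 150 bases before the start of each gene are given, with the searched motifs in capitals.
Ccl8, chr11:82115035-82115184 on the + strand: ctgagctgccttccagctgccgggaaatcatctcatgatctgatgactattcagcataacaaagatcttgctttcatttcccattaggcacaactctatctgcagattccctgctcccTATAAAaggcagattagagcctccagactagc
Ccl12, chr11:82101695-82101844 on the + strand: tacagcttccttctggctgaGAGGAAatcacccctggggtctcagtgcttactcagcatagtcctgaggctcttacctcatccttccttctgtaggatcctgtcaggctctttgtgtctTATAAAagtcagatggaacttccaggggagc
Both hold TATAAA, the TATA box letters, at -32 to -27 in Ccl8 and at -31 to -26 in Ccl12, and Ccl12 also holds GAGGAA, the core bound by the myeloid factor PU.1. The latter letters were also found before Ccl3, Ccl8 and Ccr1, but not before RefSeq's start of Ccr2. The window searched for Ccr2, 124101933 to 124102182, lies mostly inside the gene as GENCODE places it. Over the 250 bases before the start, TATAAA was found in 12.4% and GAGGAA in 23.3% of 32851 promoters, on either strand. The letters TGANTCA (AP-1, 6.75% of promoters), TTCNNNGAA (GAS, 7.02%) and TTGCNNAA (C/EBP, 9.56%) were in none of the 5 promoters. The kappaB motif (7.25%) was in that of Ccr1 only. These matches describe letters and show no binding.

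Total counts ran from 15924340 to 37388479 per library, and levels are given as TMM-scaled CPM. Mitochondrial genes held 42.2% of the counts in sedentary TME library 4 and 14.5% in sedentary TME library 6, against 1.86% to 8.63% in all others. Exercised TME libraries 8 and 9 stood apart from the other 6 TME libraries. Their summed CPM of 13 macrophage markers was 6710 and 7099, against 1382 to 1780 in the sedentary TME libraries and 1059 and 1582 in exercised TME libraries 7 and 10. By edgeR's quasi-likelihood test, 10 of 10 pan-leukocyte, 12 of 13 macrophage, 8 of 10 monocyte and 8 of 8 endothelial markers were higher in the TME sort. Of 8 fibroblast markers 7 were higher and 1, Pdgfra, was lower. The summed monocyte markers of sedentary mice were not lower in the cancer sort, at 104.5% of the TME level. A sum is set by its most abundant genes and does not speak for each marker. The mean log2 CPM of the same 10 markers was 2.84 to 3.46 in sedentary cancer and 4.69 to 5.06 in sedentary TME libraries. Fn1 (-0.05 log2) and F13a1 (0.28 log2) were the monocyte markers that did not pass the test. Of 5 tested epithelial and cancer cell markers 1 was higher in TME cells, Cdh1 at 2.81 ± 0.48 log2 (adjusted p = 2.87e-05), and 1 was lower, Spp1 at -0.33 ± 0.11 log2 (adjusted p = 0.0154). The other 3, Krt18, Epcam and Wfdc2, did not pass the test. In sedentary mice the cancer level of Spp1 was 129%, of Krt18 125% and of Epcam 97.9% of the TME level, so RNA of these 3 genes was also present in the TME sort.

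All 9 genes were higher in TME cells than in cancer cells, and for none did the libraries of the sorts overlap. The share of all genes without such overlap was not counted. The background was high: by edgeR's quasi-likelihood test 52.6% of 17503 genes differed between the sorts and 25.3% were higher in TME cells. The median difference of the 9 genes was 4.30 log2, where that of all genes tested was -0.01. The plot of levels by library shows each gene in all 23 libraries.

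**Figure D1:**
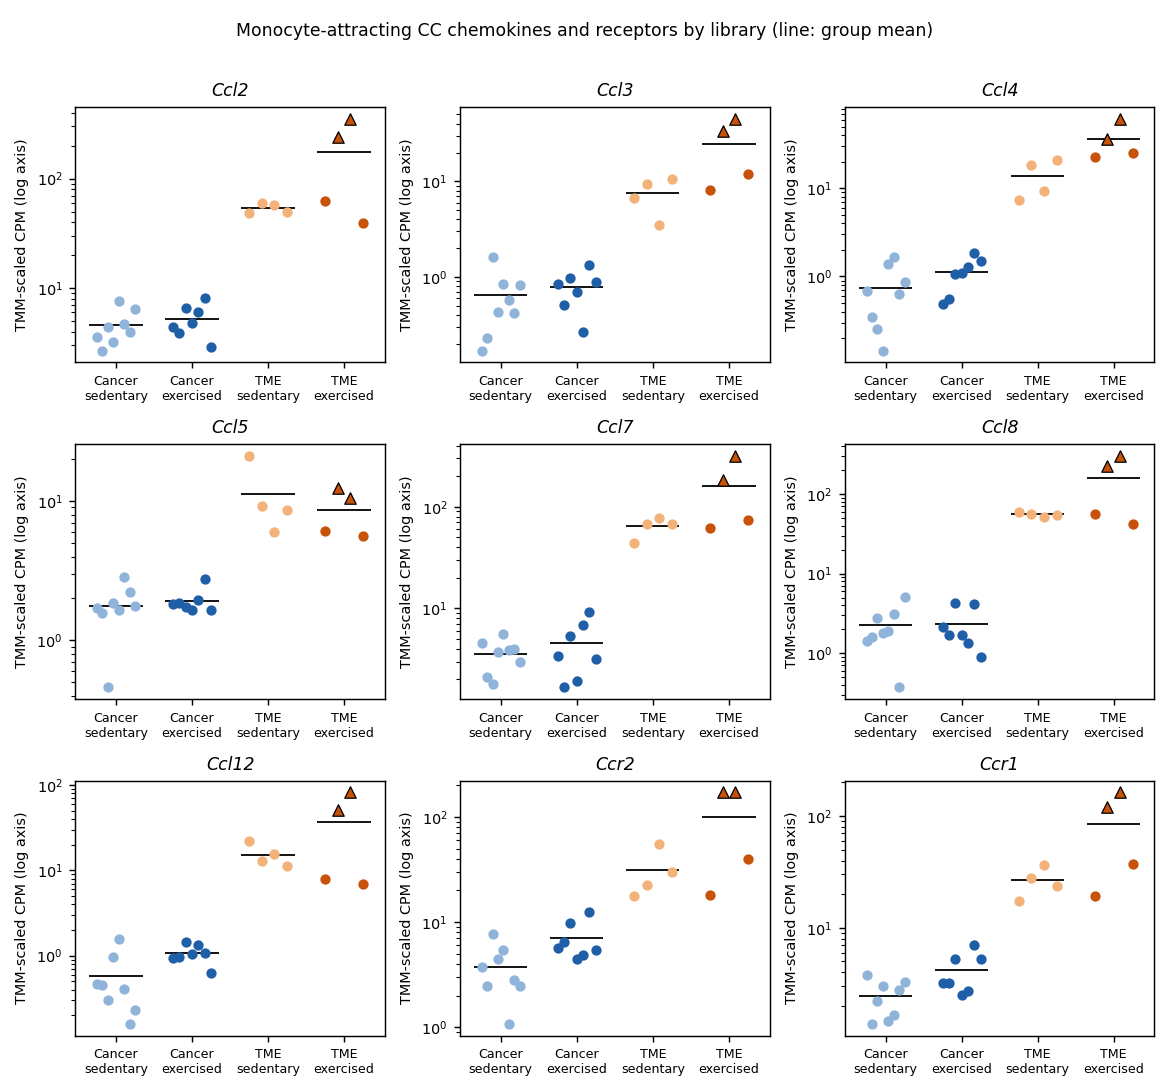
TMM-scaled CPM (log axis) of the 9 genes in each library, in panels by gene, with cancer and TME cells of sedentary and exercised mice on the x axis. Horizontal lines are group means and outlined triangles are exercised TME libraries 8 and 9. Every TME point lies above every cancer point of the same gene.

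Ccl2, the main ligand of Ccr2, was at 48.8, 60.1, 57.4 and 49.996 CPM in sedentary TME libraries 4, 6, 9 and 10. In exercised TME libraries 7, 8, 9 and 10 it was at 62.8, 240.9, 351.6 and 39.7 CPM. In the cancer cells it ran from 2.68 through a median of 4.22 to 7.66 CPM in sedentary and from 2.90 through 4.81 to 8.10 CPM in exercised mice. The lowest TME library thus lay 4.90 times above the highest cancer library. The difference between the sorts was 4.30 ± 0.31 log2 (SE, adjusted p = 5.69e-10).

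Ccl7, a second ligand of Ccr2 encoded beside Ccl2, was at 44.0, 67.3, 78.0 and 68.4 CPM in sedentary and at 62.0, 183.8, 319.2 and 74.6 CPM in exercised TME cells. Its cancer levels were 1.79 to 5.65 CPM (median 3.82) in sedentary and 1.67 to 9.26 CPM (median 3.40) in exercised mice. The levels of Ccl7 in the cancer sort were thus close to those of Ccl2 and far below either sort of TME library. Its difference between the sorts was 4.66 ± 0.32 log2 (adjusted p = 3.31e-10).

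Ccl8 had the widest gap of the 9 genes. It was at 59.0, 56.4, 52.3 and 54.6 CPM in sedentary and at 56.9, 225.9, 307.0 and 41.5 CPM in exercised TME cells. In cancer cells Ccl8 ran from 0.368 to 5.07 CPM (median 1.83) in sedentary and from 0.879 to 4.23 CPM (median 1.71) in exercised mice. The 4 sedentary TME libraries had an SD of 2.87 CPM around a mean of 55.6 CPM, the smallest spread relative to the mean among the 9 genes, while those of exercised mice spread widely. The difference was 5.35 ± 0.37 log2 (adjusted p = 4.86e-10).

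Ccl12, a ligand of Ccr2 in the mouse, was at 21.99, 12.7, 15.4 and 11.1 CPM in sedentary and at 7.91, 50.9, 82.7 and 7.004 CPM in exercised TME cells. In cancer cells it ran from 0.158 to 1.58 CPM (median 0.436) in sedentary and from 0.620 to 1.46 CPM (median 1.05) in exercised mice, from as few as 3 counts per library. Exercised TME libraries 7 and 10 were below all 4 sedentary ones, and libraries 8 and 9 above them. The difference between the sorts was 4.95 ± 0.40 log2 (adjusted p = 1.99e-09).

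Ccl3 and Ccl4 are neighbouring genes for ligands released by activated macrophages. Ccl3 was at 6.74, 9.31, 3.51 and 10.7 CPM in sedentary and at 8.21, 33.9, 44.9 and 11.9 CPM in exercised TME cells. Ccl4 was at 7.30, 18.2, 9.39 and 20.9 CPM in sedentary and at 22.5, 36.1, 61.2 and 24.9 CPM in exercised TME cells. All 4 exercised libraries were above all sedentary ones for Ccl4 but not for Ccl3, and the share of all genes so separated was not counted. In cancer cells of either treatment Ccl3 stayed between 0.169 and 1.63 CPM and Ccl4 between 0.143 and 1.86 CPM. The differences between the sorts were 4.27 ± 0.34 log2 for Ccl3 (adjusted p = 6.33e-10) and 4.62 ± 0.30 log2 for Ccl4 (adjusted p = 5.18e-11).

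Ccl5, a ligand of Ccr1 also made by T cells, had the narrowest gap, 2.41 ± 0.22 log2 (adjusted p = 6.18e-10). It was at 21.2, 9.15, 6.03 and 8.62 CPM in sedentary and at 6.15, 12.5, 10.5 and 5.59 CPM in exercised TME cells. The highest TME value was that of sedentary library 4, in which mitochondrial counts were also highest. In cancer cells Ccl5 ran from 0.460 to 2.84 CPM (median 1.72) in sedentary and from 1.65 to 2.77 CPM (median 1.84) in exercised mice. Cd3e, part of the T cell receptor complex, had a gap of 2.75 ± 0.40 log2. Single markers of several lists had gaps near that of Ccl5, among them Cd3g (2.41 ± 0.56), the macrophage marker Cd68 (2.30 ± 0.20) and the monocyte marker Cd14 (2.28 ± 0.16). The median gap was 2.58 log2 over 10 T and NK cell, 2.05 over 10 monocyte and 4.03 over 13 macrophage markers. Which cells gave the reads of Ccl5 was not tested.

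The receptors had smaller gaps than all ligands but Ccl5. Ccr2 was at 17.9, 22.5, 55.3 and 29.7 CPM in sedentary and at 18.3, 171.6, 172.6 and 39.5 CPM in exercised TME cells. Ccr1 was at 17.3, 28.1, 36.8 and 23.8 CPM in sedentary and at 19.4, 121.1, 163.6 and 37.4 CPM in exercised TME cells. Both receptors were thus high in exercised libraries 8 and 9 and within or near the sedentary range in 7 and 10. In cancer cells Ccr2 ran from 1.07 to 12.6 CPM and Ccr1 from 1.38 to 6.99 CPM over both treatments. The differences between the sorts were 3.46 ± 0.37 log2 for Ccr2 (adjusted p = 1.49e-07) and 3.90 ± 0.31 log2 for Ccr1 (adjusted p = 2.07e-09). The highest cancer level of Ccr2 came within 1.42 times of the lowest TME level.

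**Figure D2:**
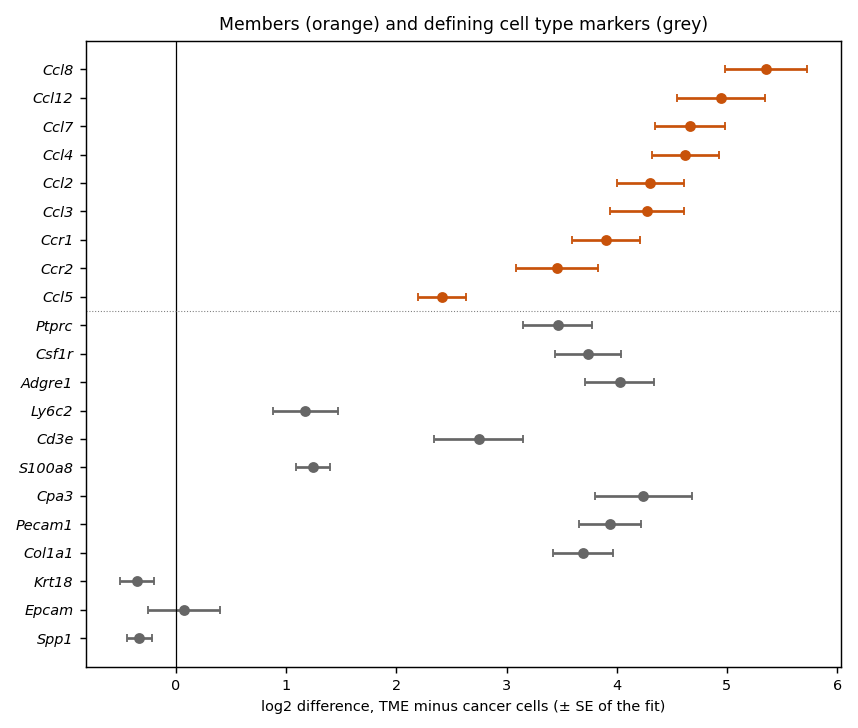
Differences between TME and cancer cells (x axis, log2, positive where TME is higher) with the standard error of the fit, for the 9 genes in orange and 12 defining cell type markers in grey. The 9 genes lie between 2.41 and 5.35, the leukocyte, endothelial and fibroblast markers between 1.18 and 4.24, and the tumour cell markers Krt18, Epcam and Spp1 between -0.35 and 0.08.

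The size of the gaps can be set beside that of markers. The difference was 3.46 ± 0.32 log2 for Ptprc, the pan-leukocyte CD45 gene, 3.74 ± 0.30 for Csf1r, the macrophage growth factor receptor, and 4.03 ± 0.31 for Adgre1, which encodes F4/80. It was 1.18 ± 0.30 for Ly6c2 and 1.24 ± 0.15 for S100a8. In sedentary mice the level in cancer cells, as a percentage of the TME mean, was 3.73% for Ccl12, 4.05% for Ccl8, 5.36% for Ccl4, 5.57% for Ccl7, 8.50% for Ccl2 and 8.50% for Ccl3. It was 9.22% for Ccr1, 12.04% for Ccr2 and 15.6% for Ccl5. The summed macrophage markers stood at 8.69%, Csf1r at 10.4%, Ptprc at 14.8% and Cd3e at 14.99%. The neutrophil marker S100a8 stood at 45.4% and the monocyte marker Ly6c2 at 73.9%, above all 9 genes. These 2 markers do not stand for their lists. The median gap was 3.22 log2 over 8 neutrophil markers and 2.05 log2 over 10 monocyte markers, and the summed neutrophil markers stood at 21.7%. Which cells gave the reads in the cancer sort was not tested. In bulk samples, fewer cells of a type and less RNA per cell cannot be told apart.

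In exercised mice the percentages were 1.46% for Ccl8, 3.03% for Ccl2, 4.89% for Ccr1 and 22.2% for Ccl5. With exercised TME libraries 8 and 9 left out they were 4.67% for Ccl8, 10.3% for Ccl2, 14.7% for Ccr1 and 32.9% for Ccl5. All 9 genes were also called higher in TME cells within sedentary mice, within exercised mice and without libraries 8 and 9. Without these libraries the differences ran from 2.15 ± 0.23 log2 in Ccl5 to 4.54 ± 0.29 in Ccl8, with 3.45 ± 0.18 in Ccl2 and 2.59 ± 0.31 in Ccr2.

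Levels per kb of exon, which allow genes to be compared, had an order in sedentary TME cells that rests on the length used. That length is all annotated exon bases of a gene, over all its transcripts. In CPM, before division by length, Ccl2 (48.8 to 60.1), Ccl7 (44.0 to 78.0) and Ccl8 (52.3 to 59.0) overlapped. Ccl8 was first at 108.8 ± 5.6 CPM per kb (SD, n = 4), followed by Ccl7 at 80.4 ± 18.02, Ccl2 at 47.5 ± 4.8 and Ccl12 at 28.5 ± 8.9. The libraries of Ccl8, Ccl7, Ccl2 and Ccl12 did not overlap from each gene to the next in this order. Ccl4 at 21.1 ± 10.03, Ccl5 at 11.7 ± 7.1, Ccl3 at 9.87 ± 4.12, Ccr1 at 9.36 ± 2.89 and Ccr2 at 4.64 ± 2.47 followed, each overlapping its neighbours. In sedentary cancer cells the levels per kb of Ccl7 (4.48 ± 1.60), Ccl8 (4.40 ± 2.77) and Ccl2 (4.04 ± 1.48) were again the highest, in ranges that overlapped, and Ccr2 was the lowest at 0.558 ± 0.305 (SD, n = 8).

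In TME cells none of the 9 genes differed between exercised and sedentary mice after adjustment. Nor did any of the 16273 genes tested (0% called), of which 1373 had an unadjusted p under 0.05. Of the 9 genes 8 were higher on average in exercised mice, with a median difference of 1.48 log2 against 0.01 for all genes. Ccl2, Ccl3, Ccl4, Ccl7 and Ccr1 had an unadjusted p under 0.05. DESeq2 called 41 genes and none of the 9.

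The differences rested mainly on exercised libraries 8 and 9. Without Ccl5, the other 8 genes were at 2.59 to 5.48 times the sedentary TME mean in library 8 and at 4.39 to 6.50 times in library 9. They were at 0.517 to 1.62 times in library 7 and at 0.457 to 1.79 times in library 10. In libraries 8 and 9 all 8 genes were above every sedentary library, and Ccl5 was not. The share of all genes so placed was not counted. Ptprc was at 5.70 and 6.43 times, Csf1r at 4.67 and 5.19 times, Adgre1 at 5.14 and 5.57 times and the mast cell protease gene Cpa3 at 8.06 and 7.62 times the sedentary mean in the same libraries. Cd3e was at 3.78 and 2.74 times and the endothelial Pecam1 at 0.449 and 0.647 times.

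Among the ligands of Ccr2, the exercise difference in TME cells was 1.66 ± 0.67 log2 for Ccl2 (adjusted p = 0.586), 1.29 ± 0.53 for Ccl7 and 1.26 ± 0.82 for Ccl12. Without libraries 8 and 9 it was -0.07 ± 0.18 for Ccl2, 0.09 ± 0.19 for Ccl7 and -1.02 ± 0.29 for Ccl12 (adjusted p = 0.9999 for each, from 2 exercised libraries). With the level of the macrophage markers as a covariate it was 0.25 ± 0.22 for Ccl2, 0.25 ± 0.17 for Ccl7 and -0.66 ± 0.30 for Ccl12. Ccl12 thus had the opposite sign under both alternatives. For Ccl8 the difference was 1.48 ± 0.64, or -0.17 ± 0.16 without libraries 8 and 9 and 0.13 ± 0.20 with the covariate.

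Ccl4 was the 1 gene of the 9 whose exercised and sedentary TME libraries did not overlap, at 22.5 to 61.2 against 7.30 to 20.9 CPM. The share of all genes with such a separation was not counted, so it is a description only. Its difference was 1.34 ± 0.42 log2 (adjusted p = 0.586 by edgeR's quasi-likelihood test). It was 0.76 ± 0.36 without libraries 8 and 9 and 0.85 ± 0.40 with the macrophage covariate, and neither passed the threshold. Ccl3 was at 1.69 ± 0.60 log2, with 0.42 ± 0.38 without libraries 8 and 9.

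Ccl5 was lower on average in exercised TME cells, at -0.38 ± 0.40 log2 (adjusted p = 0.788). The sign rested on sedentary library 4: without it the difference was 0.13 log2. Without exercised libraries 8 and 9 it was -0.91 ± 0.44. In libraries 8 and 9, where the other 8 genes were at least 2.59 times the sedentary mean, Ccl5 was at 1.11 and 0.931 times it. The summed CPM of 11 T and NK cell markers was 71.4 and 47.3 in these libraries, against 7.82 to 24.8 in sedentary TME cells.

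The receptors followed the libraries in the same way. Ccr2 differed by 1.65 ± 0.77 log2 (adjusted p = 0.590) and Ccr1 by 1.66 ± 0.66 (adjusted p = 0.586). Without libraries 8 and 9 the differences were -0.12 ± 0.55 for Ccr2 and 0.10 ± 0.31 for Ccr1. With the macrophage covariate they were 0.07 ± 0.27 and 0.26 ± 0.17. The macrophage markers were above 0 in 13 of 13 genes, with a median difference of 1.13 log2, and 0 of 13 passed the test. Of all genes tested 51.3% were above 0. The direction was shared by 10 of 10 pan-leukocyte, 10 of 10 monocyte and 8 of 8 neutrophil markers. It was also shared by 9 of 9 T and NK cell and 6 of 6 mast cell markers, but by 0 of 8 endothelial markers. The macrophage markers summed to 1059 to 7099 CPM in exercised and 1382 to 1780 CPM in sedentary TME cells, with no marker at 0 in either group. The pan-leukocyte markers summed to 393 to 2356 CPM in exercised and 538 to 744 CPM in sedentary TME cells. The covariate came from the same libraries and was highest in exercised libraries 8 and 9, so the fits with it describe and do not test. The part of macrophages and other leukocytes in the result was not tested.

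**Figure D3:**
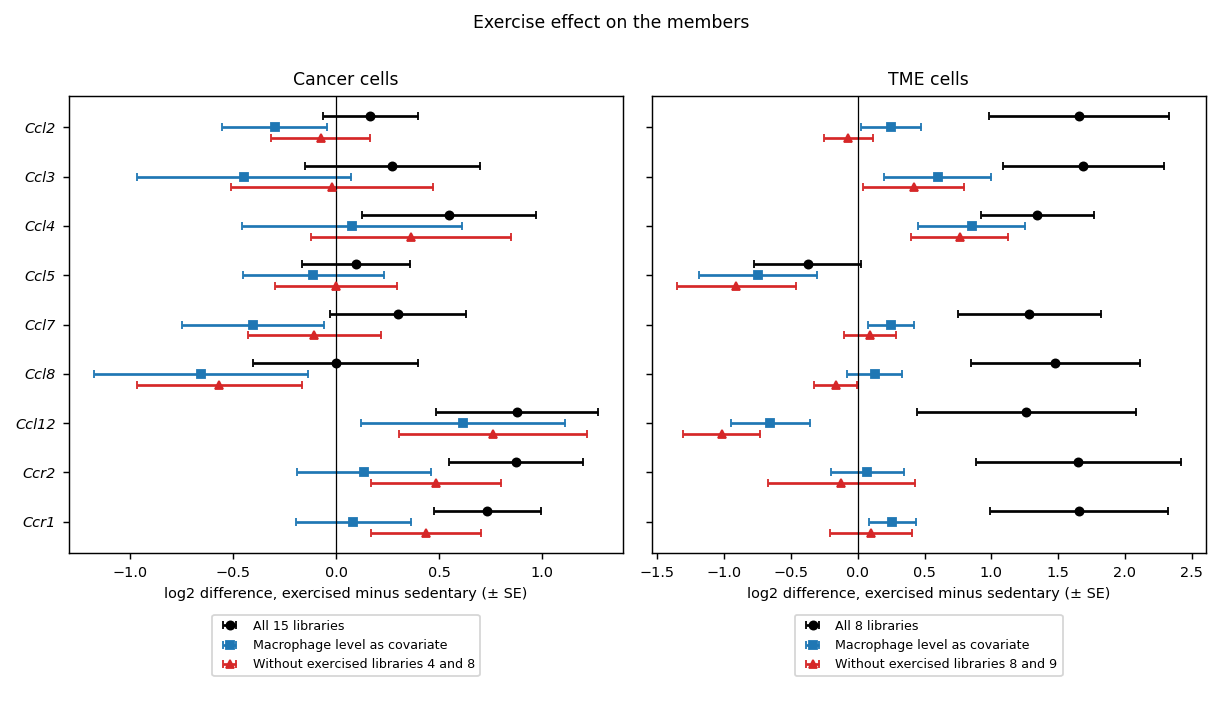
Exercised minus sedentary differences (x axis, log2, with the standard error of the fit) of the 9 genes in cancer cells at the left and TME cells at the right. Black circles are all libraries, blue squares the fit with the macrophage marker level as a covariate, and red triangles the fit without exercised cancer libraries 4 and 8 or exercised TME libraries 8 and 9. In TME cells 8 black circles lie between 1.26 and 1.69 and the red triangles lie between -1.02 and 0.76.

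In cancer cells none of the 9 genes differed between exercised and sedentary mice after adjustment, and neither did any of 15096 genes tested (0% called). An unadjusted p under 0.05 was found for 1901 genes, or 12.6%, among them Ccr1, Ccr2 and Ccl12. The median difference was 0.30 log2 for the 9 genes and -0.01 for all genes. DESeq2 called 161 genes and limma voom 196 genes, none of them among the 9.

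The receptors and Ccl12 had the widest differences. Ccr2, which admits monocytes to tissue, had a lowest, median and highest level of 1.07, 3.28 and 7.66 CPM in sedentary and of 4.42, 5.64 and 12.6 CPM in exercised cancer libraries. Ccr1 was at 1.38, 2.49 and 3.81 CPM in sedentary and at 2.52, 3.23 and 6.99 CPM in exercised libraries. For Ccr1, Ccr2 and Ccl12 all 7 exercised libraries lay above the sedentary mean, and for each the groups overlapped. How many of all genes had this pattern was not counted. The differences were 0.73 ± 0.26 log2 for Ccr1 (adjusted p = 0.264), 0.87 ± 0.33 for Ccr2 (adjusted p = 0.300) and 0.88 ± 0.39 for Ccl12 (adjusted p = 0.371).

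Of the 13 macrophage markers 11 were higher on average in exercised cancer cells, with a median difference of 0.56 log2. Of the 13 markers 0 passed the test, and 47.4% of all genes tested were above 0. Other leukocyte markers shared the direction: 10 of 10 pan-leukocyte, 9 of 10 monocyte and 5 of 5 neutrophil markers were above 0. Of mast cell markers 5 of 5 were above 0, and of T and NK cell markers 3 of 4. The shift was thus not particular to macrophages, while 1 of 4 endothelial and 0 of 5 epithelial and cancer cell markers were above 0. The macrophage markers summed to 78.7 to 165.8 CPM in sedentary and 134.9 to 341.7 CPM in exercised cancer cells, with no marker at 0 in either group. Exercised libraries 8 and 4 had the highest sums, 341.7 and 219.9 CPM, and also the highest Ccr2, at 12.6 and 9.84 CPM. With the macrophage level as a covariate the differences were 0.08 ± 0.28 log2 for Ccr1, 0.13 ± 0.32 for Ccr2 and 0.61 ± 0.49 for Ccl12. Without exercised libraries 4 and 8 they were 0.44 ± 0.27, 0.48 ± 0.31 and 0.76 ± 0.46. The covariate came from the same libraries, so in this sort too the fits with it describe and do not test. Whether macrophages or other leukocytes had a part in these differences was not tested.

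The other 6 ligands had smaller differences in cancer cells. Ccl4 differed by 0.55 ± 0.42 log2, Ccl7 by 0.30 ± 0.33, Ccl3 by 0.27 ± 0.42, Ccl2 by 0.17 ± 0.23, Ccl5 by 0.10 ± 0.26 and Ccl8 by -0.00 ± 0.40, with adjusted p from 0.626 to 0.998. With the macrophage covariate Ccl2, Ccl3, Ccl5, Ccl7 and Ccl8 were below 0, at -0.30, -0.45, -0.11, -0.40 and -0.66 log2. Counts were low in this sort, down to 3 to 9 per library in sedentary mice for Ccl3, Ccl4, Ccl5, Ccl8 and Ccl12.

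**Figure D4:**
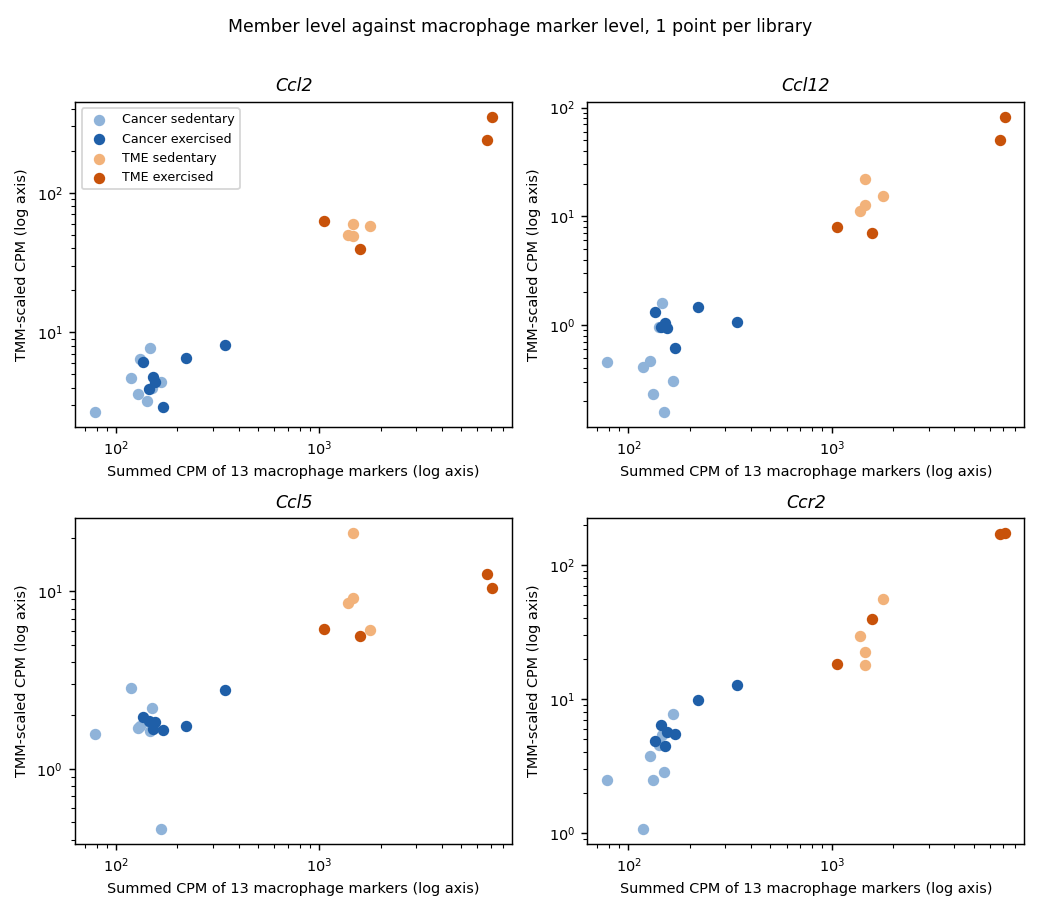
TMM-scaled CPM of Ccl2, Ccl12, Ccl5 and Ccr2 (y axes, log) against the summed CPM of 13 macrophage markers (x axes, log), 1 point per library coloured by group. Exercised TME libraries 8 and 9 lie at the right at 6710 and 7099 CPM of markers, where Ccl2, Ccl12 and Ccr2 are highest and Ccl5 is not.

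The exercise effects of the sorts were compared in 1 fit. None of the 9 genes had a difference of effects that passed the threshold, nor did any of 17503 genes (0% called), of which 7.52% had an unadjusted p under 0.05. The difference of effects was 1.47 ± 0.62 log2 for Ccl2 (unadjusted p = 0.0274, adjusted p = 0.609), 1.47 ± 0.75 for Ccl8, 1.39 ± 0.70 for Ccl3 and -0.49 ± 0.45 for Ccl5. Positive values mean a larger exercised minus sedentary difference in TME cells. Without exercised TME libraries 8 and 9 it was -0.27 ± 0.38 for Ccl2.

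Other genes of the pathway were counted in 5 lists, to be read against the 25.3% of all 17503 genes that were higher and the 27.3% that were lower in TME cells. Between the sorts, 6 of 9 tested CC chemokine genes outside the 9 were higher in TME cells and 1 was lower. Ccl6 and Ccl9, further myeloid chemokines, differed by 4.54 ± 0.37 and 4.09 ± 0.31 log2, and Ccl11, which attracts eosinophils, by 4.74 ± 0.53. Of 8 other CC chemokine receptors 5 were higher, among them the decoy-like Ccrl2 at 3.98 ± 0.36 log2. Of 16 inducers of chemokine genes 10 were higher, with the cytokine genes Il1b at 3.62 ± 0.24 and Tnf at 3.15 ± 0.28 log2. Of 14 genes of receptor signalling 10 were higher and 2 lower, with Rac2, a GTPase of blood cells, at 4.39 ± 0.32. Of 10 glycan, protease and matrix partners of chemokines 3 were higher, a share near that of all genes, and 5 were lower, with the macrophage elastase gene Mmp12 at 3.88 ± 0.41 and Ndst1, which modifies heparan sulphate, at -0.70 ± 0.08.

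No gene of these lists passed the test for exercise in either sort. In TME cells the median difference was 0.44 log2 for 8 other CC chemokines, 0.81 for 8 other receptors, 0.13 for 16 inducers and 0.55 for 14 signalling genes. Without libraries 8 and 9 these medians, over the genes then tested, were -0.10, 0.07, 0.20 and -0.09. Ccl6 differed by 1.86 ± 0.75 log2 and by -0.10 ± 0.23 without these libraries. Tnf differed by 1.34 ± 0.42 log2 and by 1.01 ± 0.49 without them, which sets it beside Ccl4 in size. In cancer cells 1 of 14 inducers was above 0, with a median of -0.22 log2, and Il6 had the smallest p at -1.27 ± 0.42 (adjusted p = 0.235).

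The genes whose pattern was most like each of the 9 were found by Pearson's r of the deviations from the 4 group means over 23 libraries, among 12016 genes with a mean of at least 1 CPM. These values describe libraries that share depth and cell makeup within a sort, and libraries 8 and 9 weigh on them. In brackets, r over all 23 libraries is followed by r within the 15 cancer libraries. Ccr1 was nearest to Mpeg1, a macrophage gene (0.96, 0.89), and to Itgam (0.91, 0.75). Ccr2 was nearest to Tlr1 (0.93, 0.87) and Csf1r (0.90, 0.78). Among the chemoattractants, Ccl2 was nearest to Tmem8 (0.91, 0.73) and Ccl7 to the macrophage lectin gene Clec10a (0.90, 0.87). Ccl8 was nearest to Wfdc17 (0.87, 0.82) and Ccl12 to Phactr2 (0.88, 0.68). Ccl3 was nearest to Hpgds (0.80, 0.87) and Ccl4 to Il10 (0.80, 0.78). Ccl5 was nearest to Mfng (0.83, 0.83).

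The 9 genes also varied among themselves. Over the 23 libraries r was 0.75 between Ccr2 and Ccr1, 0.74 between Ccl2 and Ccl8, 0.73 between Ccl2 and Ccl12 and 0.72 between Ccl2 and Ccl7. Within the 15 cancer libraries these pairs were at 0.40, 0.56, 0.32 and 0.57. Over the 23 libraries r was 0.33 between Ccl2 and Ccl5 and -0.15 between Ccl5 and Ccr2. It was 0.32 between Ccl3 and Ccl4, which lie side by side on chromosome 11. Within the cancer libraries these 3 pairs were at 0.14, -0.51 and 0.11. Within the 15 cancer libraries, r with the macrophage marker level was 0.79 for Ccr1 and 0.75 for Ccr2 and ran from 0.27 to 0.58 for the ligands. These last values used log2 CPM itself, not deviations from group means, and so include differences between exercised and sedentary libraries.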

How the data were processed

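Trizol RNA was made into polyA libraries with a KAPA Standard mRNA-Seq kit, per the labels' protocols. STAR and featureCounts on mm10 were used by the authors, per the submitters' processing notes, which as used here name no version, annotation release or strand setting. The deposited data are a table of raw counts per gene symbol in 23 columns, all of them used. From these counts, edgeR 4.0.16 in R 4.3.3 (filterByExpr, TMM, robust quasi-likelihood test, two-sided, Benjamini-Hochberg adjustment over all genes tested, threshold 0.05) gave each log2 difference ± SE and each adjusted p. Exercise was fitted within each sort, and the sorts and the difference of effects on all 23 libraries. Alternatives used DESeq2 1.42.0, limma 3.58.1 voom, other scalings, filters, covariates, a block and left-out libraries. The edgeR test was also tested on simulated data. Symbols matched GENCODE M21 for 46394 of 48397 genes and for all 9. The genes and lists were chosen with earlier results of these data known. From each list, up to 4 genes with the smallest p were eligible to be named, and 3 genes for likeness. Leaving out exercised TME libraries 8 and 9 and exercised cancer libraries 4 and 8 was chosen after seeing the data. The counts over lists include 1 gene that is not reported here.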

Additional observations from a re-analysis of the deposited data

Results flagged for a closer look

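Of 36 groups of a gene's libraries checked for a value far from the rest, 2 held one, where chance gives about 1 in 20. Ccl3 was at 1.63 CPM in sedentary cancer library 4, against 0.851 CPM in the next highest library of that group. Ccl5 was at 2.77 CPM in exercised cancer library 8, against 1.95 CPM in the next highest, and this library also had the highest macrophage marker sum of the cancer sort.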

How the results depend on the processing

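All 9 genes were called higher in TME cells under every one of the 34 alternatives, and none was called for exercise or for the difference of effects under any alternative. Genes called for exercise in cancer cells numbered 161 with DESeq2, 196 with voom, 28 with no filter and 1 with all 4 groups in 1 fit, and 0 to 43 with each library left out (43 without sedentary library 4). In TME cells they numbered 41 with DESeq2 and 6 with no filter. For the difference of effects they numbered 2 with DESeq2, 36 with voom, 14 with the replicate block, and 0 to 52 with each library left out (52 without exercised TME library 7). The causes were not tested.

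Signs changed as follows (log2). In cancer cells Ccl8 was 0.00063 with DESeq2, 0.0018 with RLE size factors, 0.00080 with a mean CPM of at least 1, 0.00051 without mitochondrial genes, 0.26 with voom, 0.021 with no filter, 0.037 with all 4 groups, and -0.21 to 0.28 with each library left out, where Ccl5 was -0.044 to 0.23. With the macrophage covariate Ccl2, Ccl3, Ccl5 and Ccl7 were -0.30, -0.45, -0.11 and -0.40, with the pan-leukocyte covariate -0.11, -0.34, -0.033 and -0.18, and without exercised libraries 4 and 8 -0.076, -0.020, -0.0022 and -0.11. In TME cells Ccl5 was 0.19 with voom, 0.25 without sedentary libraries 4 and 6, and -0.59 to 0.13 with each library left out. Ccl12 was -0.66 with the macrophage and -0.43 with the pan-leukocyte covariate. Without exercised libraries 8 and 9 Ccl2, Ccl8, Ccl12 and Ccr2 were -0.070, -0.17, -1.02 and -0.12, and the differences of effects of Ccl2, Ccl7, Ccl8, Ccl12, Ccr2 and Ccr1 were -0.27, -0.23, -0.19, -1.93, -1.01 and -0.64. The difference of effects of Ccl5 was 0.12 with voom and -0.67 to 0.041 with each library left out, and that of Ccl12 -0.36 to 0.74.

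Libraries of different groups share numbers in the labels, but r over 0.1 was found in 2 of 7 pairs across treatments and 4 of 7 across sorts, and 3 of 4 sedentary and 3 of 3 exercised cancer libraries correlated best with the TME library of their own number. Between the sorts 7360 genes were called with the block, against 9201 without it. With the block Ccl3 and Ccl7 were -0.0022 and -0.0041 in cancer cells, Ccl5 was 0.088 in TME cells, and the differences of effects of Ccl4, Ccl7, Ccl12 and Ccr1 were -0.022, -0.23, -1.01 and -0.13. Ccl3, Ccl4 and Ccl12 had as few as 3 or 4 counts in a cancer library, and the TME comparison rests on 4 libraries per group.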
